A study of Mus musculus with 6 samples.

Results

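The nuclear genes of respiratory complexes II to V were examined in the hippocampus of aging (22M) and young (3M) mice. The members were chosen by symbol: every gene whose name starts with Cox4, Cox5, Cox6, Cox7, Cox8, Uqcr or Atp5, together with Sdha, Sdhb, Sdhc, Sdhd, Cyc1 and Cycs. The rule gave 46 of the 13321 genes in the table, namely 4 of complex II, 9 of complex III (Cyc1 included), cytochrome c (Cycs), 16 of complex IV and 16 of complex V. Older symbols are kept here as the table gives them. Atp5s, a factor associated with the ATP synthase, is a member by its name although it is not a subunit of the enzyme. The study compared hippocampal aging in male wild-type (WT) C57 BL/6 mice, an inbred laboratory strain, and measured mRNA in 6 libraries. The 3 libraries of the 22M group are named 72, 76 and 78, and the 3 libraries of the 3M group J11, J13 and J15. The labels give these mice no treatment other than their age, and no source used here says that each library came from a separate mouse, and the p-values therefore cover only the spread from library to library. Values are FPKM (sequenced fragments normalised for the length of a transcript and the size of a library), summed over the transcripts of a gene.

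Complexes II to IV pass electrons from succinate and ubiquinol to oxygen in the inner mitochondrial membrane, cytochrome c carries them between complexes III and IV, and complex V, the ATP synthase, makes ATP with the proton gradient that results. Complex II is built from nuclear genes alone, while complexes III, IV and V also hold subunits made from mitochondrial DNA. Neurons meet most of their ATP demand by this route, since ion pumping at axons and synapses is costly.

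The tissue label was checked first. All 6 hippocampal markers (Prox1, Wfs1, Zbtb20, Neurod6, Fibcd1 and Spink8) were in the table and summed to 260.3 to 277 FPKM in the 22M libraries, against 199 to 320 FPKM in the 3M libraries, and 0 of the 6 changed. Prox1 alone did not overlap and was higher (18.9, 22.2 and 19.7 FPKM in 22M, against 8.91, 12.3 and 17.8 FPKM in 3M). J11 stood apart: its 4 striatal markers summed to 359 FPKM, against 16.7 to 27.6 FPKM in the 22M libraries and 24.3 FPKM in J13 and 26.8 FPKM in J15. The 4 choroid plexus markers varied within 22M, with summed levels of 2747, 1131 and 130 FPKM in 72, 76 and 78, against 1889, 1594 and 2439 FPKM in J11, J13 and J15. Other markers moved with age. Of 5 oligodendrocyte markers, 4 fell (summed level 568 to 734 FPKM in 22M, against 938 to 1022 FPKM in 3M), of 5 thalamic markers, 2 fell (16.2 to 19.4 FPKM against 32.4 to 56.7 FPKM), and all 5 erythroid markers rose (1329 to 2046 FPKM against 589.5 to 633 FPKM). Of 5 astrocyte markers 0 changed, although 3 did not overlap and were higher and 1, Aldh1l1, did not overlap and was lower. The 5 summed to 450.3 to 549 FPKM in 22M, against 363 to 403 FPKM in 3M. Of 5 pan-neuronal markers 0 changed, although Syt1 did not overlap and was higher, and Rbfox3 did not overlap and was lower. The part of these cell types in the values of the members was not tested, and in such bulk tissue fewer cells of a type and less RNA per cell cannot be told apart. Total FPKM ran between 318024 and 358073 per library, the values hold no read counts, and the depth of each library is therefore unknown.

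The members were abundant. All 46 were among the 13041 genes tested (those that averaged 0.5 FPKM or more), 45 exceeded 1 FPKM in every library, and 39 had a mean over 50 FPKM. Their mean levels ran from 3.34 FPKM (Cox4i2) to 471 FPKM (Cox8a), and 32 lay above the 95th percentile of all genes. Together they held 1.68 to 1.76% of all FPKM in the 22M libraries, against 1.80 to 2.08% in the 3M libraries. Their FPKM summed to 6157, 5507 and 5353 in libraries 72, 76 and 78, against 6926, 7466 and 6188 in J11, J13 and J15. As deposited, the groups therefore did not overlap in the sum, although 72 lay only just below J15. Under the other scalings given below they did overlap.

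The promoters of 34 members were found in the RefSeq table of promoters (build GRCm38.p6), which covers 250 bases before to 50 bases after each start. They were searched on both strands for motifs of regulators of mitochondrial genes. The 9-letter motif of NRF1, GCGCANGCG, was in 13 of 34 member promoters (38.2%), against 7.03% of all 27025 genes with a promoter and 14.9% of the 10110 tested ones. Its short site GCGCATG, which can lie inside the longer motif, was in 9 (26.5%, against 4.41% of all and 7.69% of tested genes). The ETS core CCGGAAG, bound by GABP, was in 12 (35.3%, against 9.93% of all and 18.9% of tested genes), and 6 promoters held both NRF1 and ETS motifs. The YY1 core AAGATGG was in 3 (8.82%, against 7.28% of all and 8.29% of tested genes), and TATAAA in 2 (5.88%, against 15.7% and 8.61%). The Sp1 motif GGGCGG was in 12 (35.3%, against 38.2% of all and 69.4% of tested genes). A match is a description of the letters and not a binding site. The fold changes did not separate by the NRF1 motif: of the 13 members with it, 8 had every 22M library below every 3M library, as did 12 of the 21 without it. This order was found in 21.1% of all genes tested. For the short site the counts were 6 of 9 with it and 14 of 25 without it, and for the ETS core 7 of 12 and 13 of 22. They were 10 of 12 and 10 of 22 for Sp1, 3 of 3 and 17 of 31 for YY1, and 1 of 2 and 19 of 32 for TATAAA. None of these splits was tested.

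The promoters of 5 genes are printed as the 120 bases before the RefSeq start, because Sdha, Sdhb and Sdhd encode parts of 1 complex but differed in their values, Cycs kept its difference after correction for length, and Atp5k went the other way. They were chosen after the values were seen. All run 5′ to 3′ along the gene's own strand, and capitals mark NRF1 motifs, NRF1 short sites and ETS cores. Sdha lies at chr13:74350241-74350360 (minus strand), Sdhb at chr4:140961151-140961270 (plus), Sdhd at chr9:50603850-50603969 (minus), Cycs at chr6:50566570-50566689 (minus) and Atp5k at chr5:108434400-108434519 (minus).
Sdha: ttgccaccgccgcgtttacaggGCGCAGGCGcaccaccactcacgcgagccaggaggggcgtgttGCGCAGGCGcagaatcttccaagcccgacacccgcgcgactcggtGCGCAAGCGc
Sdhb: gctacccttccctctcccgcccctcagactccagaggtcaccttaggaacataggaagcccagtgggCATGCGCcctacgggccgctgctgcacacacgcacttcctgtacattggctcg
Sdhd: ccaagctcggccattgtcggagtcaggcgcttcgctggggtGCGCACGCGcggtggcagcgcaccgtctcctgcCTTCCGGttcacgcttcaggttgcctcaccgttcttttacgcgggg
Cycs: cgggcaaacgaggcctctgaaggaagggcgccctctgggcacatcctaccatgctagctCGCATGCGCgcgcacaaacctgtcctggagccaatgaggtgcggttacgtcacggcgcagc
Atp5k: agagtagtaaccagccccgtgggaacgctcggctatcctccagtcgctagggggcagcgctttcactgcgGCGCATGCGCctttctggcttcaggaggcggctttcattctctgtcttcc
Sdha, whose ages overlapped, carries 3 NRF1 motifs in this window. Sdhb carries a short site, and Sdhd an NRF1 motif and an ETS core. The searched promoters of Sdhb and Atp5k also held an ETS core, which lies outside the printed stretches.

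To compare the ages, all 13041 genes were tested with limma on log2(FPKM + 0.5), a scale that understates the change of genes at low levels, and p-values were adjusted over all of them. Between 22M and 3M, 2 of the 46 members fell (Uqcrfs1 and Atp5d) and 0 rose at a limma adjusted p under 0.05, where 1.21% of all genes tested fell and 0.92% rose. At an unadjusted p under 0.05, 25 members passed (27.0% of all genes did), and the adjusted p of 18 members was under 0.1 (13.2% of all genes). At the thresholds of the study (unadjusted P under 0.05 with a change of more than 1.5-fold), 2 members were lower (Atp5d and Atp5j) and 0 were higher, where 4.22% and 4.08% of all genes passed. Nothing is read from these counts about the members as a group. Both adjusted calls were lost when J11, J13, 72, 76 or 78 was left out (0 members fell), and without J15 4 members fell.

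Most members nevertheless lay lower in 22M. The log2 fold change was below 0 in 44 of 46 members (95.7%), against 56.0% of all genes tested, with a median of -0.32 among the members and -0.05 among all genes. Every 22M library was below every 3M library in 26 of 46 members (56.5%), against 21.1% of all genes, and 0 members had the opposite order, against 13.3% of all genes. Both shares over all genes ran with transcript length, as given below. The ratio of the mean FPKM, 22M over 3M, ran from 0.640 (Atp5d) to 1.12 (Cox8b), with a median of 0.800. Without J11, the library with striatal markers, the median was -0.32 and 26 members did not overlap and were lower, against 25.3% of all genes. The libraries were unequal within an age: J13 was the highest of all 6 libraries for 34 members, 78 was the lowest for 26 and 76 for 14. J15 was the lowest of the 3M libraries for 38 members, and 72 the highest of the 22M libraries for 28.

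**Figure D1:**
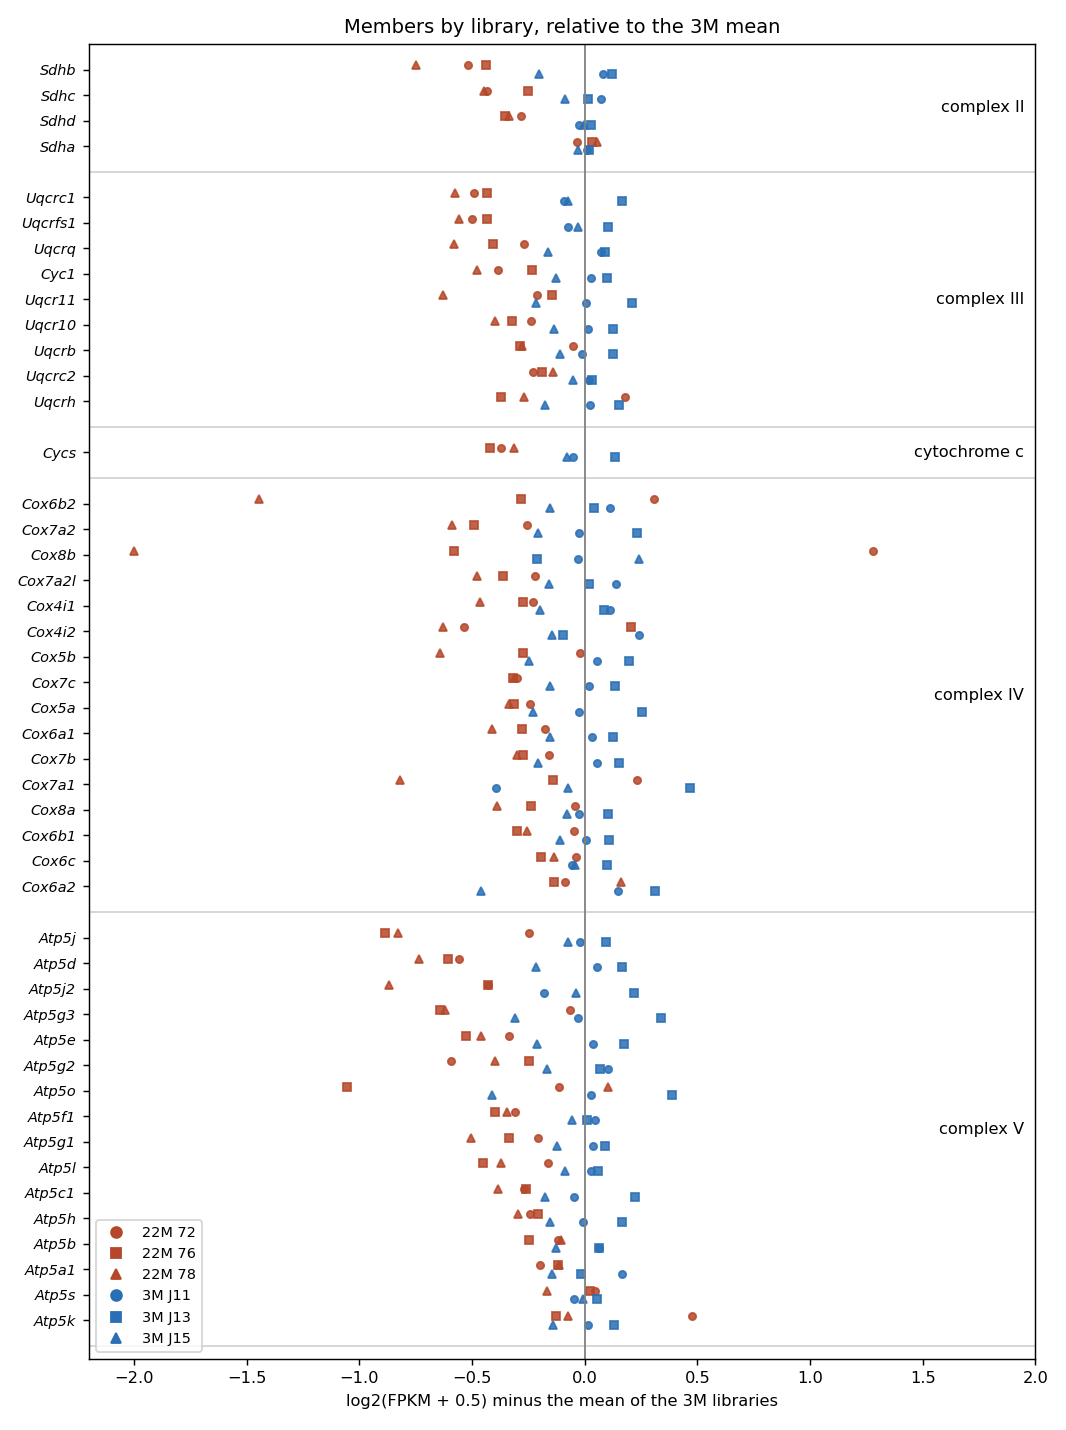
The 46 members in rows by complex, each with its 3 libraries of 22M (red) above its 3 libraries of 3M (blue). The x axis gives log2(FPKM + 0.5) minus the mean of the 3M libraries. For 26 members all red points lie left of all blue points, and the libraries of Cox8b, Cox6b2, Cox7a1 and Atp5o are widely spread.

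Complex II oxidises succinate to fumarate and is also an enzyme of the citric acid cycle. Of its 4 genes, 3 did not overlap between the ages and were lower in 22M (21.1% of all genes), and 1 overlapped. The median log2 fold change was -0.35. Sdha, the flavoprotein that holds the active site, had 121, 127 and 129 FPKM in 72, 76 and 78, against 125, 126 and 122 FPKM in J11, J13 and J15. Its ages overlapped and differed by 0.02 on the log2 scale (SE 0.07, limma adjusted p = 0.888). Sdhb, the iron-sulphur subunit that takes electrons from Sdha, had 48.0, 50.7 and 40.8 FPKM in 22M, against 72.9, 75.0 and 59.8 FPKM in 3M. Each 22M library was below each 3M library, 78 being the lowest and J15 the lowest of the young ones. The log2 fold change was -0.57, with a SE of 0.12 (limma adjusted p = 0.0607).

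Sdhc and Sdhd anchor the enzyme in the membrane and bind ubiquinone. Sdhc had 24.9, 28.3 and 24.7 FPKM in 22M, against 35.6, 34.2 and 31.8 FPKM in 3M (log2 fold change -0.38, limma adjusted p = 0.0706). Sdhd had 50.02, 47.5 and 48.2 FPKM in 22M, against 59.9, 62.2 and 60.8 FPKM in 3M (log2 fold change -0.32, limma adjusted p = 0.0584). For both anchors the ages were apart in every library, and the spread of Sdhd was small (SD 1.29 FPKM in 22M and 1.15 FPKM in 3M, n = 3 each). None of the 3 passed the adjusted threshold.

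The other genes of complex II were also set against Sdha within each library, a comparison chosen after the values were seen and given without a test. Sdhb over Sdha was 0.316 to 0.399 in 22M and 0.492 to 0.596 in 3M. Sdhc over Sdha was 0.191 to 0.223 in 22M and 0.262 to 0.284 in 3M, and Sdhd over Sdha was 0.373 to 0.412 in 22M and 0.478 to 0.4998 in 3M. Each ratio was lower in all 22M libraries. A ratio within a library does not depend on how that library was scaled, but it shows unequal levels only, not which of its genes differed. It does depend on transcript length, since fold changes ran with length in these libraries and Sdha has 2900 bases, Sdhc 3171, Sdhd 1231 and Sdhb 1142. After correction for length and GC content the log2 fold changes were 0.04 for Sdha, -0.38 for Sdhc, -0.10 for Sdhd, whose ages then overlapped, and -0.27 for Sdhb.

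**Figure D2:**
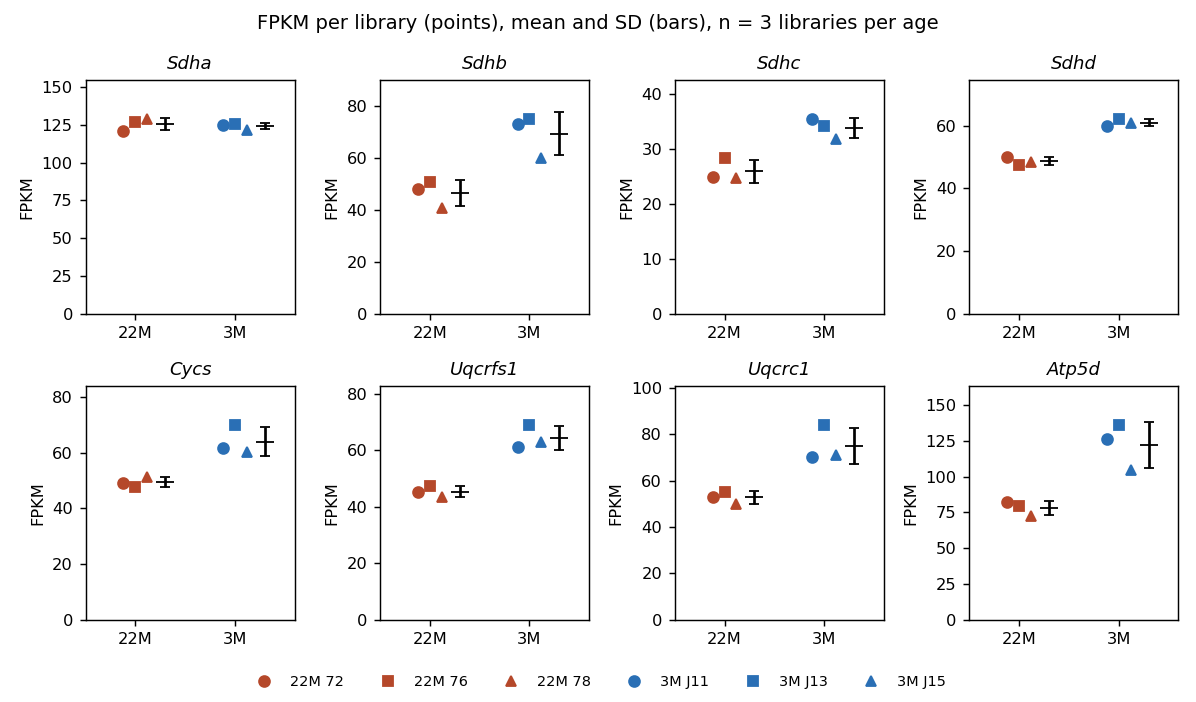
FPKM in each library (points), with the mean and SD of each age beside them (22M left in red, 3M right in blue, n = 3 each), for complex II, Cycs, Uqcrfs1, Uqcrc1 and Atp5d. Sdha overlaps between the ages at 121 to 129 FPKM, while in the other 7 genes every 22M library lies below every 3M library.

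Complex III transfers electrons from ubiquinol to cytochrome c. Of its 9 genes, 1 fell (1.21% of all genes) and 6 did not overlap and were lower in 22M (21.1% of all genes). The median log2 fold change was -0.33. Uqcrfs1, the Rieske iron-sulphur protein that is inserted late in assembly, had 45.3, 47.5 and 43.4 FPKM in 22M, against 61.1, 69.1 and 62.9 FPKM in 3M. The 22M libraries lay close together and all below the 3M libraries, of which J13 was the highest. It fell by 0.50 on the log2 scale (SE 0.08, limma adjusted p = 0.0479). The gene lies at chr13:30540308-30545362 (minus strand, GRCm38) and the table holds 1 transcript of it.

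Uqcrc1, a core protein of the complex, had 53.1, 55.2 and 49.9 FPKM in 22M, against 70.1, 84.0 and 70.9 FPKM in 3M (log2 fold change -0.50, SE 0.10, limma adjusted p = 0.0529). Its partner core protein Uqcrc2, chosen after its values were seen, had 90.6, 93.3 and 96.5 FPKM in 22M, against 108, 109 and 103 FPKM in 3M (log2 fold change -0.19, limma adjusted p = 0.149). Both were lower in all 22M libraries, and Uqcrc1 over Uqcrc2 was 0.517 to 0.592 in 22M and 0.650 to 0.771 in 3M. Cyc1, the cytochrome c1 that hands electrons on, had 61.0, 67.8 and 57.0 FPKM in 22M, against 81.4, 85.5 and 72.9 FPKM in 3M (log2 fold change -0.37, limma adjusted p = 0.0847).

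Several small subunits lie around the core. Uqcrq had 54.3, 49.3 and 43.8 FPKM in 22M, against 69.1, 69.8 and 58.6 FPKM in 3M, and Uqcr10 had 159, 150.0 and 142 FPKM in 22M, against 189.6, 204 and 170.4 FPKM in 3M. Neither overlapped between the ages. Uqcrb had 231, 197 and 198 FPKM in 22M, against 238, 262 and 222 FPKM in 3M, and the hinge protein Uqcrh had 286, 195 and 209 FPKM in 22M, against 257, 281 and 223 FPKM in 3M. In both, library 72 reached into the range of the young libraries, and for Uqcrh it was the highest of all 6. Uqcrh has processed pseudogenes in the mouse genome, and whether reads were shared with them was not tested.

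Cycs encodes the somatic cytochrome c, the mobile carrier between complexes III and IV. It had 49.2, 47.6 and 51.2 FPKM in 22M, against 61.5, 69.9 and 60.3 FPKM in 3M. The 22M libraries were all lower, with J13 highest (limma adjusted p = 0.066 for a log2 fold change of -0.37 ± 0.09, SE). The ratio of Cycs to Cyc1, its electron donor, was 0.802 ± 0.098 in 22M and 0.800 ± 0.039 in 3M (SD, n = 3 each), so the pair kept a like ratio with overlapping ages. Cycs too has pseudogene copies.

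Complex IV reduces oxygen to water. Its catalytic subunits are mitochondrially encoded, and the nuclear genes give the structural subunits around them, several in tissue-specific pairs. Of its 16 nuclear genes, 0 fell (1.21% of all genes) and 6 did not overlap and were lower in 22M (21.1% of all genes). The median log2 fold change was -0.30. This median rested in part on 78, since it was -0.17 without that library. Cox4i1, the common form of subunit 4, had 248, 241 and 211 FPKM in 22M, against 315, 308 and 254 FPKM in 3M. The ages stayed apart by the small gap between 72 and J15 (log2 fold change -0.32, limma adjusted p = 0.137). Cox6a1 had 405, 377 and 344 FPKM in 22M, against 468, 499.8 and 411 FPKM in 3M, with the same narrow gap (log2 fold change -0.29, limma adjusted p = 0.144).

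The most abundant member, Cox8a, had 490.3, 429 and 386 FPKM in 22M, against 497, 543 and 479.6 FPKM in 3M. Library 72 exceeded J15, so the ages overlapped (log2 fold change -0.22, limma adjusted p = 0.24). Cox6b1, which faces the intermembrane space, also overlapped, with 336, 282 and 291 FPKM in 22M, against 349, 374 and 322 FPKM in 3M. Cox7c had 172, 170.2 and 171 FPKM in 22M, against 215, 233 and 191 FPKM in 3M, and its 22M libraries lay within a SD of 1.18 FPKM (log2 fold change -0.31, limma adjusted p = 0.0947). Cox7a2 had 110.1, 93.4 and 87.1 FPKM in 22M, against 129, 154 and 114 FPKM in 3M (log2 fold change -0.45, limma adjusted p = 0.111). Cox7a2l had 82.5, 74.7 and 68.8 FPKM in 22M, against 106, 97.5 and 86.1 FPKM in 3M. Its log2 fold change was -0.35 (limma adjusted p = 0.106). In these 3 genes no library of the one age reached the other.

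The tissue-specific isoforms were low and scattered. Cox4i2, known from lung and from cells short of oxygen, had 2.38, 4.32 and 2.20 FPKM in 22M, against 4.44, 3.41 and 3.28 FPKM in 3M. Cox6a2, a heart and muscle form also found in some neurons, had 13.3, 12.8 and 15.8 FPKM in 22M, against 15.7, 17.7 and 10.1 FPKM in 3M. Both overlapped between the ages. The testis form Cox6b2 had 12.5, 8.11 and 3.34 FPKM in 22M, against 10.8, 10.3 and 8.93 FPKM in 3M. The muscle forms Cox7a1 and Cox8b had 6.27, 4.73 and 2.76 FPKM and 9.31, 2.21 and 0.510 FPKM in 22M, against 3.89, 7.48 and 4.98 FPKM and 3.46, 3.00 and 4.27 FPKM in 3M. In Cox6b2 and Cox8b 72 was the highest and 78 the lowest of all libraries, so that the 22M group spanned the 3M group. The summed choroid plexus markers had the same order within 22M, highest in 72 and lowest in 78, and their part in these values was not tested. Leaving out 78 turned the sign of the difference for Cox6b2, Cox7a1 and Cox8b (log2 fold changes 0.01, 0.04 and 0.35).

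The shares of the isoforms within their pairs were put to an exact permutation test (two-sided), which cannot give a p below 0.1 with 3 libraries against 3. Of 10 shares and ratios, all overlapped between the ages, and the exact p ran from 0.4 to 1.0 (1.0 after Benjamini-Hochberg adjustment over the 10). Cox4i2 made up 1.25% ± 0.45 of both subunit 4 genes in 22M and 1.25% ± 0.15 in 3M (SD, n = 3 each). Cox7a2l was grouped with Cox7a1 and Cox7a2 by its symbol alone, so its share is not taken as that of an isoform of subunit 7a. It held 42.7% ± 1.03 of these 3 genes in 22M and 41.3% ± 3.42 in 3M (SD, n = 3 each). At this number of libraries a shift between isoforms was not detectable.

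Complex V consists of a catalytic head, a central stalk that turns within it, a peripheral stalk that holds it still, and a membrane ring. Of its 16 genes, 1 fell (1.21% of all genes) and 10 did not overlap and were lower in 22M (21.1% of all genes). The median log2 fold change was -0.35. Atp5d, the delta subunit of the central stalk, had 82.3, 79.7 and 72.7 FPKM in 22M, against 126, 136 and 105 FPKM in 3M. Even the highest 22M library lay well below J15, the lowest of the young ones. It fell by 0.63 on the log2 scale (SE 0.11, limma adjusted p = 0.04996), a call at the edge of the threshold that pseudocounts of 0.1 or 1 removed. The gene lies at chr10:80138632-80145818 (plus strand, GRCm38).

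The other parts of the central stalk were lower too. Atp5e, the epsilon subunit, had 84.5, 74.1 and 77.5 FPKM in 22M, against 109.7, 121 and 92.2 FPKM in 3M (log2 fold change -0.44, limma adjusted p = 0.0805). Atp5c1, the gamma subunit and chosen after its values were seen, had 97.7, 98.3 and 90.1 FPKM in 22M, against 114, 137 and 104 FPKM in 3M (log2 fold change -0.30, limma adjusted p = 0.152). The ages did not overlap in either. Atp5b, the beta subunit of the catalytic head, had 322, 295 and 325 FPKM in 22M, against 365, 366 and 321 FPKM in 3M (log2 fold change -0.16, limma adjusted p = 0.297). Its ages overlapped, since J15 lay below 72 and 78. Atp5d over Atp5b was 0.224 to 0.270 in 22M and 0.326 to 0.372 in 3M, a ratio chosen after the values were seen and not tested.

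In the peripheral stalk, Atp5f1 (subunit b) had 105, 98.5 and 102 FPKM in 22M, against 134, 131 and 125 FPKM in 3M. The libraries of each age lay close together and apart from the other age (log2 fold change -0.35, SE 0.07, limma adjusted p = 0.0537). Atp5j (coupling factor 6) had 94.4, 60.4 and 62.9 FPKM in 22M, against 110.4, 119.8 and 106 FPKM in 3M. It had the most negative log2 fold change of the members (-0.65, SE 0.17, limma adjusted p = 0.0831), and 72 lay between the other 22M libraries and the 3M group. Atp5h (subunit d) had 269, 277 and 260.0 FPKM in 22M, against 317, 358 and 286 FPKM in 3M (log2 fold change -0.25, limma adjusted p = 0.165).

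In the membrane part, 3 genes encode the same mature c subunit of the ring with different import signals. Atp5g1 had 92.7, 84.7 and 75.4 FPKM in 22M, against 109.7, 114 and 98.2 FPKM in 3M, and Atp5g2 had 64.6, 82.4 and 74.2 FPKM in 22M, against 105, 102 and 87.1 FPKM in 3M. Neither overlapped. Atp5g3 had 137, 91.7 and 93.3 FPKM in 22M, against 140.5, 182 and 116 FPKM in 3M, where 72 exceeded J15. Its share of the 3 genes was 40.1% ± 5.78 in 22M and 41.2% ± 3.85 in 3M (SD, n = 3 each). Atp5j2 (subunit f) had 79.9, 79.9 and 58.9 FPKM in 22M, against 95.1, 126 and 105 FPKM in 3M, with no overlap (log2 fold change -0.58, limma adjusted p = 0.0854).

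Atp5k, subunit e of the same membrane part, was chosen after its values were seen, as the only member besides Sdha with a positive log2 fold change (0.09, limma adjusted p = 0.763). It had 238, 156 and 163 FPKM in 22M, against 173, 187 and 155 FPKM in 3M, so that 72 alone stood above the rest and the ages overlapped. It has pseudogene copies, and whether reads were shared with them was not tested. Of the 12 members that the naming rule left out, 4 did not overlap between the ages (Uqcrc2, Cox5a, Atp5l and Atp5c1, all lower in 22M). This order was found in 21.1% of all genes. The log2 fold changes of the 12 ran from -0.36 to 0.09.

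Summed by complex, the mean FPKM of 22M differed from that of 3M by -14.4% for complex II, -17.3% for complex III, -22.8% for cytochrome c, -16.6% for complex IV and -18.3% for complex V. The sums of complex II were 244, 254 and 243 FPKM in 72, 76 and 78, against 294, 297 and 274 FPKM in the libraries J11, J13 and J15. Those of complex V were 2160, 1891 and 1951 FPKM, against 2483, 2675 and 2187 FPKM. For complex IV they were 2606, 2338 and 2182 FPKM, against 2879, 3104 and 2567 FPKM. As deposited, complex IV alone overlapped between the ages in its sum, through 72 and J15. The gap of complex III was narrow, with 1097 FPKM in 72 and 1099 FPKM in J15.

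Fold changes in these libraries ran with transcript length, and most members are short. The length of the most abundant transcript of a gene, from GENCODE release vM21, had a median of 738 bases among the members and 2971 bases among all genes. Across 13015 genes with a length, Spearman's rho between length and log2 fold change was 0.51, a description across genes that share the same 6 libraries. All genes were put into 10 classes of equal size by length. In the shortest class the median log2 fold change was -0.33 and 41.2% did not overlap and were lower in 22M, while in the longest class the values were 0.33 and 2.54%. The opposite order, which 0 members had, was found in 4.15% of the shortest class, 3.31% of the next and 46.6% of the longest. The shortest class held 30 members, of which 14 (46.7%) did not overlap and were lower. The 16 genes of complex IV, with transcripts of 360 to 1076 bases, all lay in this class, and 6 of them (37.5%) did so. The next class held 9 members, of which 8 (88.9%) did so, beside 39.5% of all genes of that length class. Within the 46 members, length and log2 fold change gave a rho of -0.15.

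The fit was repeated after each library had been corrected for transcript length and GC content. The median log2 fold change of the members was then -0.07 (all genes -0.01), 0 members fell or rose (0.131% and 0.269% of all genes), and 8 of 46 members (17.4%) did not overlap and were lower, against 14.4% of all genes, a share near the background. These 8 were Sdhb, Sdhc, Uqcrfs1, Uqcrc1, Atp5d, Atp5f1, Atp5l and Cycs. Cox8a and Atp5k had no overlap in the opposite direction, where 11.4% of all genes did. The medians were -0.19 for complex II, -0.05 for complex III, -0.0051 for complex IV and -0.08 for complex V. In these complexes 2 of 4, 2 of 9, 0 of 16 and 3 of 16 genes did not overlap and were lower. Sdhc and Cycs, whose transcripts have 3171 and 3123 bases, kept log2 fold changes of -0.38 each, while Uqcrfs1 and Atp5d had -0.29 and -0.30 (limma adjusted p = 0.148 and 0.151). The correction removes whatever runs with length and GC content, and whether that relation came from the libraries or from the tissue was not tested.

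**Figure D3:**
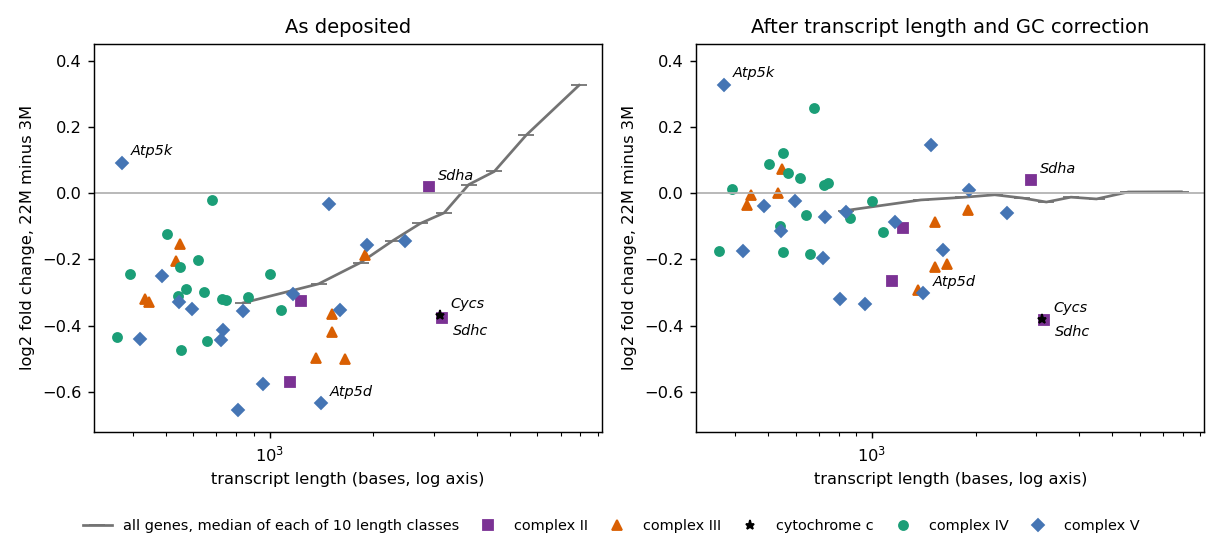
Log2 fold change (22M minus 3M) of the 46 members against the length of their most abundant transcript (log axis), as deposited (left) and after correction for transcript length and GC content (right). The grey line gives the median of all genes in each of 10 length classes, which runs from -0.33 to 0.33 on the left. Most members follow that line at its short end, while Sdhc and Cycs lie below it in both panels.

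At the level of transcripts, 88 of the 92 member transcripts were tested among 23637, and 0 fell or rose at a limma adjusted p under 0.05 (0.0846% and 0.123% of all transcripts), while 29 passed an unadjusted p under 0.05 (17.3% of all transcripts). In 32 the ages did not overlap and 22M was lower (14.5% of all transcripts), and in 0 it was higher (11.5%). Atp5h was divided between transcripts: Atp5h-201 had 68.1, 50.7 and 86.4 FPKM in 22M, against 138, 136 and 154 FPKM in 3M, with no overlap (log2 fold change -1.09, limma adjusted p = 0.11). Its more abundant transcript Atp5h-208 had 197, 199 and 145 FPKM in 22M, against 149.5, 167 and 121 FPKM in 3M, with overlap (log2 fold change 0.30). Of Atp5j, transcript Atp5j-201 carried most of the difference, with 56.8, 33.1 and 48.1 FPKM in 22M, against 93.1, 97.9 and 75.3 FPKM in 3M (log2 fold change -0.97, limma adjusted p = 0.142). These transcripts were chosen after their values were seen, and how the authors divided reads between transcripts is not stated in their methods.

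The genes around the members were read from the same fit. Of 36 nuclear subunits of complex I, the entry point for NADH electrons, 2 fell (1.21% of all genes) and 0 rose (0.92% of all genes). In 29 the ages did not overlap and 22M was lower (21.1% of all genes), and the median log2 fold change was -0.44. After the correction 12 of the 36 did (14.4% of all genes), with a median of -0.14. A list of 44 tested assembly factors of complexes II to V also held other genes of complex V, among them Usmg5, 2010107E04Rik and Atpif1. Of the 44, 3 fell (1.21% of all genes) and 0 rose (0.92% of all genes). The 3 were of complex IV: Coa3, an early factor, Surf1, which takes part in building the heme centre, and Cox17, a copper chaperone. Surf1 had 7.56, 7.94 and 7.26 FPKM in 22M, against 11.96, 11.5 and 12.03 FPKM in 3M, with all 22M libraries lower (log2 fold change -0.61, SE 0.09, limma adjusted p = 0.0407). Cox17 had 44.5, 50.01 and 42.7 FPKM in 22M, against 78.1, 87.0 and 67.9 FPKM in 3M (log2 fold change -0.75, limma adjusted p = 0.0407). The list had a median of -0.28, and 19 of its 44 genes did not overlap and were lower (21.1% of all genes). After the correction 15 did (14.4% of all genes), with a median of -0.17.

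Of 12 carriers and membrane proteins of mitochondria, 1 fell (1.21% of all genes) and 0 rose (0.92% of all genes). The 1 was Slc25a5, an ADP/ATP carrier, with 122, 131 and 126 FPKM in 22M, against 185, 185 and 167 FPKM in 3M. Of the 12, 9 did not overlap and were lower (21.1% of all genes). After the correction 5 of the 12 did (14.4% of all genes), and the median log2 fold change was -0.15, against -0.34 before it. The 13 mitochondrially encoded subunits were read likewise: 0 fell or rose, 0 did not overlap, and their median log2 fold change was -0.04, with 12 of the 13 highest in library 72. Their FPKM summed to 88881, 61382 and 59713 in 72, 76 and 78, against 68101, 70370 and 71195 in J11, J13 and J15. Their mRNA was captured with oligo beads as well, and 72 alone set the upper end. The nuclear genes of complex IV amounted to 10.6 to 14.0% of the summed mt-Co1, mt-Co2 and mt-Co3 in 22M and to 13.2 to 15.7% in 3M, with overlap.

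Of 14 regulators of mitochondrial gene expression, 0 changed at the adjusted threshold. In 2 the ages did not overlap and 22M was lower (21.1% of all genes), and in 5 it was higher (13.3% of all genes). The median log2 fold change was 0.03. Esrra, a nuclear receptor that works with PGC-1 coactivators, had 11.3, 12.1 and 11.4 FPKM in 22M, against 13.9, 15.7 and 15.4 FPKM in 3M (log2 fold change -0.35, limma adjusted p = 0.0800). Gabpa, the DNA-binding subunit of GABP, had 6.59, 7.35 and 7.72 FPKM in 22M, against 5.95, 4.83 and 5.36 FPKM in 3M (log2 fold change 0.40, limma adjusted p = 0.110). After the correction their log2 fold changes were -0.11 for Esrra and 0.23 for Gabpa.

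**Figure D4:**
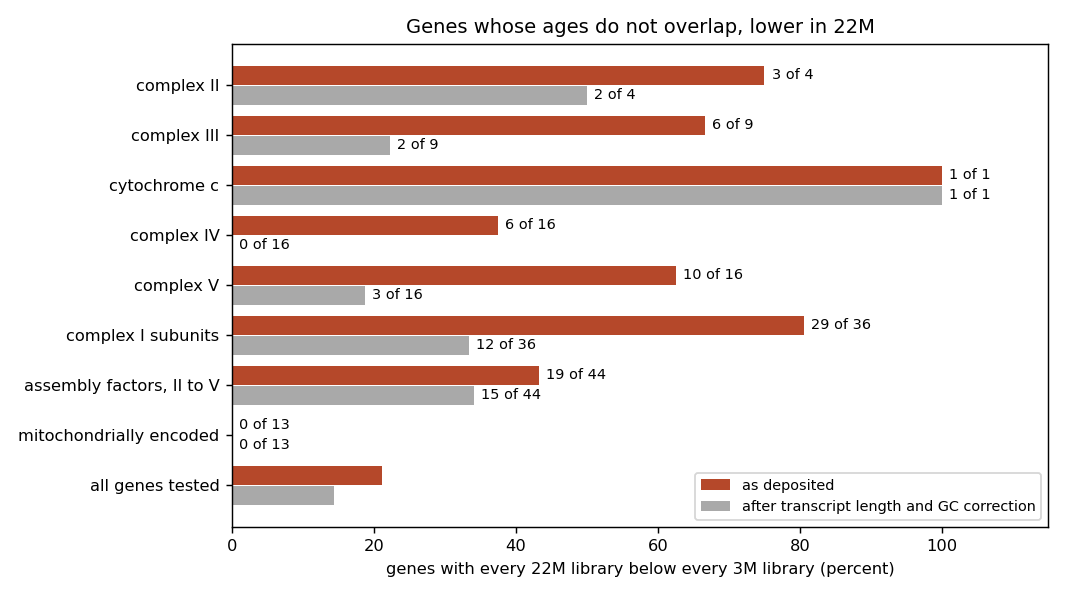
Percentage of genes in each group whose 22M libraries all lie below all 3M libraries, as deposited (red) and after correction for transcript length and GC content (grey), with the numbers of genes beside the bars. The background over all genes tested is 21.1% as deposited and 14.4% after the correction. Complex IV has 6 of 16 as deposited and 0 of 16 after the correction, and the 13 mitochondrially encoded genes have 0 in both.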

How the data were processed

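Hippocampal mRNA was measured in 3 libraries of 22M mice and 3 libraries of 3M mice, grouped by the ages in the sample labels. The authors enriched polyadenylated RNA with oligo beads, prepared stranded libraries (KAPA kit) and deposited a table of FPKM values with 25409 protein-coding transcripts. The submitters' processing notes name HISAT2 and GRCm38 (mm10), while a quantifier, its strand setting and an annotation release were not given in the sources used here. Low FPKM values showed no steps of whole reads (at most 14.2% of them lay within 0.05 of a whole step), so depth is unknown, no interval for counting error was given, and precision comes from the spread between libraries.

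Transcripts were summed to genes by symbol. A two-sided limma test with a variance trend (limma 3.58.1, R 4.3.3) was run on log2(FPKM + 0.5) of every gene that averaged 0.5 FPKM or more, with Benjamini-Hochberg adjustment over all of them, and transcripts were treated likewise. Transcript lengths and GC content came from GENCODE vM21 (99.7% of transcripts matched), and each library was corrected with natural splines of 4 degrees of freedom. The alternatives were pseudocounts of 0.1 and 1, no filter and a filter of 2 FPKM, quantile normalization, median-of-ratios scaling, each gene's own variance, limma with no trend, the correction, the most abundant transcript, and leaving out each library. Corrections for length or GC content alone, and leaving out J13 and 78 together, were added after the data were seen.

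The members, the gene lists and the tests were chosen with earlier results of these data known. The genes named were those past the adjusted p, in each complex the 5 with the smallest p and the 2 most abundant, all paralogues of the isoform shares, any member with a log2 fold change above 0.1, and up to 3 genes of each other list by p, of which not every one is printed. No test was run over a score of the members.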

Additional observations from a re-analysis of the deposited data

How the results depend on the processing

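No paired analysis was possible because the labels give library names and no replicate numbers shared between the ages. The count of members that fell (2) was 1 with a pseudocount of 0.1 or 1, with no filter and with a correction for GC content alone, and 4 with a filter of 2 FPKM. It was 0 under quantile normalization, median-of-ratios scaling, each gene's own variance, limma with no trend, the correction for length and GC content, that for length alone, the most abundant transcript, and without J13 and 78 together. Leaving out 1 library gave 0 to 4. The 2 members lower at the thresholds of the study were 1 under median-of-ratios scaling, 0 under quantile normalization, each of the 3 corrections and without J13 and 78, and 0 to 7 when 1 library was left out (7 without 72, 5 without J15, 1 without J13, 0 without 78). Under the same thresholds 50.8% of all genes that passed were lower in 22M, 39.7% under median-of-ratios scaling, 41.9% under quantile normalization and 39.3% after the correction for length and GC content. The 26 members without overlap that were lower in 22M became 15 under quantile normalization, where 17.4% of all genes had this order. After either correction that included length they became 8 (14.4% of all genes). Under median-of-ratios scaling (16.8% of all genes) the count was also below 26. There 72 exceeded J15 in Cox4i1, Cox5a, Cox6a1, Cox7a2 and Cox7a2l, whose ages therefore overlapped. The 0 members without overlap that were higher became 1 under median-of-ratios scaling and without J13 and 78, 2 under quantile normalization and after the correction for length and GC content, 3 after that for length alone, and 0 to 1 when 1 library was left out (1 without 72). Where no share of all genes stands beside a count in this paragraph, nothing is read from that count about the members.

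The median log2 fold change of all members was -0.17 under quantile normalization, -0.069 after the correction for length and GC content, -0.052 after that for length alone and -0.20 without J13 and 78. The median of all genes in the same settings was -0.013, -0.015, -0.012 and -0.052. In the first 3 of these settings the median was -0.25, -0.19 and -0.17 for complex II, -0.14, -0.051 and -0.075 for complex III, -0.14, -0.0051 and -0.013 for complex IV and -0.18, -0.080 and -0.063 for complex V. Leaving out 1 library gave -0.392 to -0.265 for all members and -0.068 to -0.035 for all genes. Complex IV had -0.13 without J13 and 78, and -0.38 to -0.17 when 1 library was left out. The difference in summed FPKM under quantile normalization was -5.19% for complex II, -6.67% for complex III, -15.8% for cytochrome c, -7.45% for complex IV and -7.61% for complex V, and complex II had -10.9% under median-of-ratios scaling. In both settings the sums of complexes III, IV and V overlapped between the ages, since 72 exceeded J15. The sum of all members did likewise (6399 FPKM in 72 and 6119 FPKM in J15 under median-of-ratios scaling). Complex II and cytochrome c did not overlap. The corrections and quantile normalization act on the distribution of each library, and whether they removed technical or biological differences was not tested.

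Of 646 values of the 34 named members under alternatives, 576 kept their sign and their side of the threshold, and 36 values of 14 members changed sign, none of them past the threshold in either setting. After the correction for length and GC content the log2 fold change was 0.011 for Atp5b, 0.030 for Cox4i1, 0.025 for Cox4i2, 0.061 for Cox6a1, 0.26 for Cox6a2, 0.045 for Cox6b1, 0.013 for Cox7a1, 0.12 for Cox8a, 0.00036 for Uqcrb and 0.072 for Uqcrh. After that for length alone it was 0.034 for Atp5b, 0.017 for Atp5h, 0.27 for Cox6a2, 0.086 for Cox6b1, 0.054 for Cox8a, 0.069 for Uqcrb and 0.12 for Uqcrh. Under quantile normalization it was 0.031 for Atp5b, 0.0139 for Cox6a2 and 0.0142 for Uqcrh. The most abundant transcript gave 0.30 for Atp5h and 0.17 for Cox4i2. Cox6a2 also had 0.033 under median-of-ratios scaling and 0.047 after the correction for GC content alone. Without J13 and 78 the values were 0.043 for Cox6a2, 0.033 for Cox6b2, 0.28 for Cox7a1 and 0.24 for Cox8b. Leaving out 1 library gave -0.25 to 0.13 for Cox6a2, -0.87 to 0.01 for Cox6b2, -0.48 to 0.04 for Cox7a1, -1.29 to 0.35 for Cox8b and -0.0015 to 0.044 for Sdha. Of the differences in isoform share, in percentage points, the most abundant transcript gave 0.382 for Cox4i2 and -0.329 for Atp5g2. Leaving out 1 library gave -0.262 to 0.145 for Cox4i2, -0.833 to 0.389 for Cox6b2, -0.114 to 0.630 for Cox7a1, -0.482 to 2.88 for Cox7a2l, -0.386 to 0.479 for Cox8b, -1.84 to 3.12 for Atp5g2, -4.29 to 1.29 for Atp5g3, and -0.046 to 0.052 for the ratio of Cycs to Cyc1. No members rose under any alternative that was run. The FPKM carry no depth, so how far low isoforms are limited by counting error is unknown.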

Other observations

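Atp5a1, the alpha subunit of the ATP synthase, was divided unevenly between transcripts in 1 library: transcript Atp5a1-202 had 21.2, 25.8 and 12.9 FPKM in 72, 76 and 78, against 87.0, 12.8 and 20.2 FPKM in J11, J13 and J15. The main transcript of the gene had 164, 169.7 and 184 FPKM in 22M, against 151, 197 and 172 FPKM in 3M. J11, which held the high value, is also the library with striatal markers (Drd2 at 41.5 FPKM in J11, against 0.919 to 1.202 FPKM in the 22M libraries and 1.44 and 1.48 FPKM in J13 and J15).

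Atp5o, the subunit of the peripheral stalk that gives oligomycin sensitivity, had 116, 60.0 and 134 FPKM in 22M, against 127, 164 and 93.9 FPKM in 3M, with 76 the lowest and J13 the highest of all libraries. Among the assembly factors of complex III, Lyrm7, which stabilises the Rieske protein before its insertion, had 6.17, 6.96 and 6.53 FPKM in 22M, against 5.42, 4.56 and 3.78 FPKM in 3M. All 22M libraries were higher (log2 fold change 0.48, SE 0.15, limma adjusted p = 0.106), an order found in 13.3% of all genes. Any relation to Uqcrfs1, the Rieske protein itself, was not tested.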
